A study of Mus musculus with 6 samples.

Results

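The mRNAs of the translation initiation factors were followed across Ribo-seq libraries of mouse tissues, in which the mRNA fragments protected by translating ribosomes are sequenced. All mRNAs whose mouse symbol begins with Eif were taken, with the symbol looked up from the Ensembl gene ID in each row name. Of the 18437 mRNAs listed in at least 1 library, 56 were chosen in this way. The libraries came from untreated wild-type C57BL/6J mice aged 4 weeks, and the labels name 1 library each for heart, lung, brain, kidney, colon and small intestine. Tissues were lysed with cycloheximide, which holds ribosomes in place, and digested with RNase I. The values are ribosome densities in RPKM, that is, reads on a coding sequence (CDS) divided by its length and by the library's total. Since RPKM is per length, levels of different mRNAs can be set side by side within a library, if reads can be placed along nearly all of each CDS. Reads with more than 1 mapping position were left out, so the RPKM of an mRNA that shares sequence with other transcripts can be too low. With 1 library per label there was no replicate error, so no difference between libraries was tested, and all intervals cover counting error only. In bulk tissue, fewer cells of a type and less mRNA per cell cannot be told apart. Ribosome density was not divided by mRNA abundance, so more mRNA and more ribosomes per mRNA cannot be told apart either.

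Between 4504853 and 10635031 reads lay on CDSs per library. The labels were checked against 18 tissue markers, 3 for each label. Only the markers of heart and lung, 6 in all, were highest under their own label. The 3 markers of brain were highest under the small intestine label and those of small intestine under the brain label. The 3 markers of colon were highest under the kidney label and those of kidney under the colon label. Under their own label these markers reached between 0% and 24.1% of their highest level. The libraries are therefore named by their labels only, and values for the heart-labelled and lung-labelled libraries alone are given where they matter. A single mRNA, Kri1, took between 0.400% (lung label) and 22.1% (kidney label) of all reads, which lowers the RPKM of every other mRNA in a library by the share it takes.

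Initiation factors bring the ribosome to the start codon of an mRNA. eIF2 carries the initiator tRNA to the small ribosomal subunit and is recharged with GTP by eIF2B, and the eIF2 kinases lower initiation by phosphorylating the alpha subunit of eIF2, which then blocks eIF2B. eIF3 is a scaffold of many subunits on the small ribosomal subunit. eIF4F, made of the cap-binding protein eIF4E, the scaffold eIF4G and the helicase eIF4A, recruits the mRNA, and the eIF4E binding proteins (4E-BPs) compete with eIF4G for eIF4E under the control of mTOR. eIF1, eIF1A and eIF5 act in the choice of the start codon, and eIF5B joins the large subunit.

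Short stretches of the mRNAs show features that these factors act through. Vertebrate start codons are read best with a purine at the third base before the ATG and a G just after it, and eIF1 is known for rejecting sites that lack these. The stretches around the start codons of the 2 eIF1 mRNAs and of Eif5b are printed from the GRCm39 genome with GENCODE M39, with the base at position -3, the ATG and the base after it in capitals. Eif1 lies at chr11:100210670-100212922 (plus strand), Eif1b at chr9:120306993-120324396 (plus strand) and Eif5b at chr1:38037038-38094683 (plus strand).
Eif1: tcgtatCgtATGT
Eif1b: tagtgtCgcATGT
Eif5b: tgacaaGcgATGG
Both eIF1 mRNAs have a pyrimidine at -3, whereas Eif5b has the purine and the G. A pyrimidine at -3 was found in 8 of the 56 mRNAs, namely Eif1, Eif1a, Eif1b, Eif2ak3, Eif2b4, Eif3b, Eif4h and Eif6. Over the 56 mRNAs the share with a purine was 85.7%, beside 85.2% of 17607 listed mRNAs with sequence, so that the share differed little from that of all mRNAs.

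Another pair of stretches codes for the element through which 4E-BPs bind eIF4E, with the codons of its tyrosine and its leucine in capitals. The stretch starts at CDS base 157 of Eif4ebp1 (chr8:27750350-27805206, plus strand) and at CDS base 160 of Eif4ebp2 (chr10:61264032-61288567, minus strand).
Eif4ebp1: TATgaccggaaatttCTGatg
Eif4ebp2: TATgaccgaaagtttCTGttg
They differ at 3 of 21 bases. The last pair codes for the site of hypusine, the modified lysine that eIF5A needs, with the lysine codon in capitals. It starts at CDS base 142 of both Eif5a (chr11:69807422-69827276, minus strand) and Eif5a2 (chr3:28835361-28852995, plus strand).
Eif5a: actggcAAGcatggccatgccaag
Eif5a2: actgggAAGcatggtcatgccaag
They differ at 2 of 24 bases. Both pairs are shown because their members share the site while their ribosome densities, given further on, differed between the libraries.

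Reads were found on 53 of the 56 mRNAs in at least 1 library and on 46 in all 6. A fold was computed for the 48 with at least 100 reads summed over the 6 libraries, with values under 3 reads set to the RPKM of 3 reads. The highest library was at least 4 times the lowest for 26 of the 48 mRNAs (54.2%). Over all 12558 mRNAs with as many reads, the share was 84.8%. The median fold between the highest and the lowest library was 4.25 for the initiation factors and 21.8 for all mRNAs. The median depth was 1998 reads for the initiation factors and 866 for all mRNAs, and its part in this difference was not tested. The lung-labelled library carried much of the spread: without it 15 of the 48 mRNAs passed 4-fold, beside 77.9% of all mRNAs. With Kri1 and mitochondrially encoded mRNAs left out of the totals, 18 (37.5%) passed 4-fold, beside 83.8% of all. Scaled by the median of ratios over mRNAs with reads in all libraries, 20 (41.7%) passed, beside 83% of all. Eif3e, Eif4a3, Eif4g1 and Eif5b lost the call under both scalings.

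**Figure D1:**
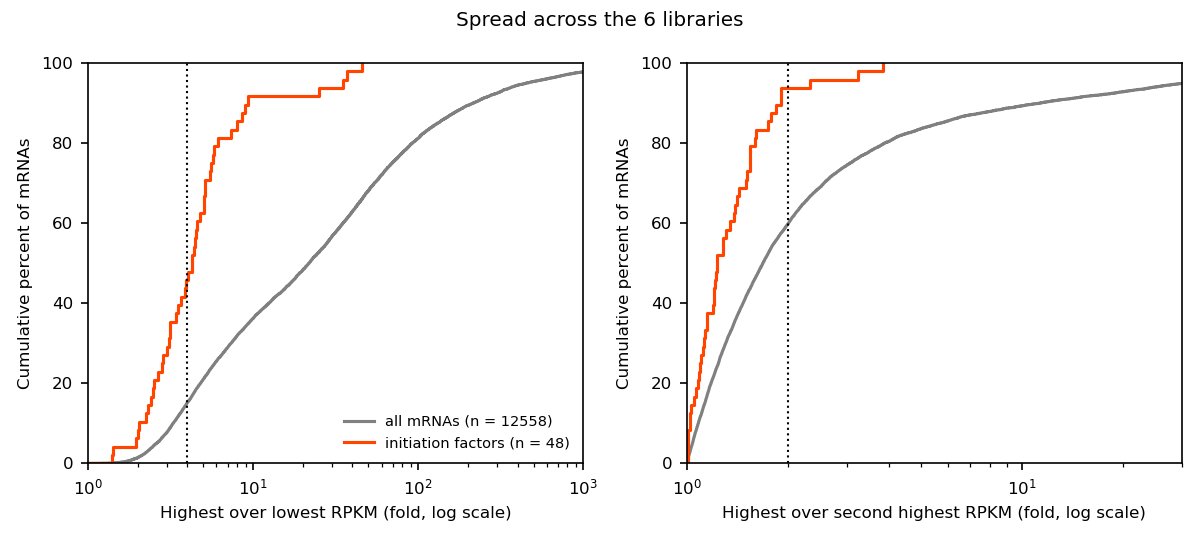
Cumulative percent of mRNAs (y axis) by the fold between the highest and the lowest library (left, log scale) and between the highest and the second highest library (right, log scale). The orange-red line stands for 48 initiation factor mRNAs and the grey line for 12558 mRNAs, the dotted lines mark 4-fold and 2-fold, and the orange-red line runs to the left of the grey one, with medians of 4.25 and 21.8 in the left panel.

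An mRNA was called high in 1 library when its highest value was at least 2 times the second highest. This held for 3 of the 48 mRNAs (6.25%), Eif2a and Eif2d under the lung label and Eif4ebp1 under the heart label, beside 40.3% of all mRNAs. The count depended on single libraries. It was 8 without the brain-labelled, 5 without the heart-labelled, 5 without the kidney-labelled and 6 without the lung-labelled library. Over all mRNAs these omissions gave 44.7%, 41.9%, 44.8% and 40.2%, in the same order. An mRNA was called low in 1 library when its second lowest value was at least 2 times the lowest, which held for 10 mRNAs (20.8%) beside 33.6% of all. These were Eif1a, Eif2ak2, Eif2ak3, Eif2ak4, Eif2b4, Eif3b, Eif3e, Eif4a1, Eif4e2 and Eif4enif1, of which Eif2b4, Eif3e and Eif4e2 lost the call under each of 2 other scalings. No fold rule was met by 22 of the 48 mRNAs. This share was not computed for all mRNAs, but since 84.8% of them passed the 4-fold range, it cannot exceed the share of those left.

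Initiation factors took 0.534%, 0.546%, 0.423%, 0.315%, 0.729% and 0.349% of the reads in the brain-labelled, colon-labelled, heart-labelled, kidney-labelled, lung-labelled and small-intestine-labelled libraries. The lung-labelled library was the highest and the kidney-labelled the lowest. With Kri1 left out of the total, the shares were 0.544%, 0.586%, 0.427%, 0.405%, 0.732% and 0.407%, and the kidney-labelled and small-intestine-labelled libraries were then nearly equal. Of the 48 mRNAs, 21 (43.8%) were highest in the lung-labelled library, beside 26.8% of all mRNAs, and 20 (41.7%) were lowest in the small-intestine-labelled one, beside 17.1% of all. Scaled by the median of ratios over mRNAs with reads in all libraries, 10 were highest in the lung-labelled library, beside 17.2% of all mRNAs. In the same library 10 were lowest, beside 21.8% of all. The heart-labelled library then held the most mRNAs at their highest, 14, beside 16.6% of all. The place of the lung-labelled library thus depended on the scaling. The small-intestine-labelled library still held the most at their lowest, 13 (27.1%) beside 13.7% of all mRNAs. Without Kri1 and mitochondrially encoded mRNAs it held 16 at their lowest, beside 15.7% of all. The median of ratios changed the level of the lung-labelled library by -0.44 on the log2 scale and that of the small-intestine-labelled library by 0.23.

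**Figure D2:**
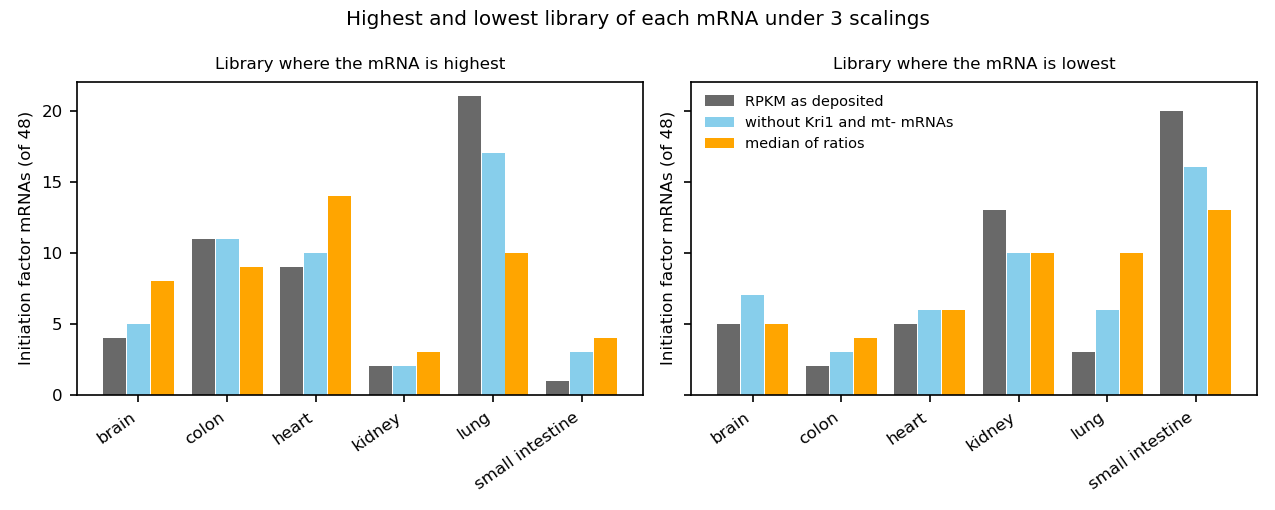
Number of the 48 initiation factor mRNAs (y axis) that were highest (left) or lowest (right) in each library, named by its label, under RPKM as deposited, without Kri1 and mitochondrially encoded mRNAs, and by median of ratios. In the lung-labelled library the number of mRNAs at their highest went from 21 to 10 with the median of ratios. The shares of all mRNAs were 26.8% and 17.2%.

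Values below are RPKM in alphabetical order of the labels, from brain over colon, heart, kidney and lung to small intestine. Eif1, which guards start codon choice, had 68.8, 49.8, 111, 52.9, 91.6 and 32.4 RPKM, and its paralog Eif1b had 8.04, 24.9, 28.8, 7.39, 63.7 and 63.3 RPKM. Eif1 was highest under the heart label, whereas Eif1b was about equally high under the lung and small intestine labels and lowest under the kidney label, a range of 8.62-fold (95% interval 5.35 to 14.7). Eif1b accordingly held 10.5%, 33.3%, 20.6%, 12.3%, 41.0% and 66.1% of the summed RPKM of the pair. Its share was above that of Eif1 only in the small-intestine-labelled library, where the interval ran from 59.9% to 72.0%, and the share did not depend on the scaling between libraries. Every 29-nt window of both CDSs was found in no other transcript searched.

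Eif1ax, an X-linked gene for eIF1A, which steadies the scanning ribosome, had 14.6, 17.98, 20.4, 15.6, 15.6 and 15.1 RPKM. By RPKM its range of 1.40-fold (0.987 to 1.98) was the smallest of the 48 mRNAs, in a near tie with Eif5 at 1.41-fold (1.18 to 1.69). With the median of ratios, the heart-labelled value of Eif1ax was 2.03 times its lung-labelled one, so its range was wider under that scaling. Its paralog Eif1a had 5.92, 6.12, 5.13 and 9.17 RPKM in the first 4 libraries, was not listed under the lung label, and had 12.7 RPKM under the small intestine label. With 3 reads it would have had 0.509 RPKM under the lung label, and the next lowest library was 10.1-fold above that level. Only 74.5% of the windows of Eif1a were unique, and multi-mapped reads were left out of these values. Eif1ax held 71.1%, 74.6%, 79.9%, 62.9%, 100.0% and 54.4% of the summed RPKM of the pair. Under the small intestine label the interval of 44.9% to 63.4% spanned an even split, and per unique window Eif1a held 51.9% there, so that Eif1ax led in 6 libraries by RPKM and in 5 per unique window. This order also rests on the annotated CDS lengths, 762 nt for Eif1a and 432 nt for Eif1ax. In reads, Eif1a had 53 beside 51 under the kidney label and 74 beside 50 under the small intestine label, and fewer than Eif1ax in every other library.

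Eif5, the GTPase-activating partner of eIF2, varied little as well, with 36.1, 39.2, 34.9, 32.0, 32.0 and 27.7 RPKM and a range of 1.41-fold (1.18 to 1.69). Eif5b had 82.5, 69.7, 50.6, 27.9, 125 and 32.4 RPKM, highest under the lung label and lowest under the kidney label, 4.47-fold apart (4.13 to 4.83). This range fell below 4-fold both without Kri1 and mitochondrially encoded mRNAs and with the median of ratios. Eif6, which keeps the large subunit from joining too early, had 137, 73.7, 64.8, 144, 91.0 and 51.4 RPKM. Its highest values lay under the kidney and brain labels, with intervals of 134 to 154 and 129 to 145 that overlapped. Eif1ad, named for an eIF1A domain, had 64.5, 26.1, 20.8, 49.4, 40.1 and 43.3 RPKM.

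By RPKM, the median level of eIF2 differed less between libraries than that of eIF2B, eIF3 or eIF4F. Eif2s1, the alpha subunit that the kinases phosphorylate, had 106, 73.3, 104, 79.7, 52.0 and 61.0 RPKM. Eif2s2, the beta subunit, had 181, 116, 93.5, 117, 179.5 and 81.1 RPKM. Eif2s3x, the X-linked gamma subunit that binds GTP and the initiator tRNA, had 99.5, 111, 229.8, 138, 100.5 and 192 RPKM. None of these passed 4-fold, and their ranges were 2.04-fold, 2.24-fold and 2.31-fold. The subunits were high in different libraries, alpha under the brain and heart labels, beta under the brain and lung labels and gamma under the heart and small intestine labels. The median over the subunits ranged from 81.1 RPKM (small intestine label) to 117 RPKM (kidney label), 1.44-fold. That fold was 1.62 without Kri1 and mitochondrially encoded mRNAs and 1.81 with the median of ratios, which was then above that of eIF4F and its helpers at 1.69. Over medians across libraries the highest subunit was 1.63-fold above the lowest, and 2.12-fold in the heart-labelled and lung-labelled libraries alone. Eif2s3y, the Y-linked copy of gamma, had 1 read in all, under the small intestine label, although 99.6% of its windows were unique. Other Y-linked genes differed: Ddx3y had 3 reads and Uty 1, whereas Kdm5d had 159. Of the Kdm5d reads, 101 lay under the kidney label, 41 under the small intestine label and 15 under the heart label. The reason for this difference was not tested.

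Eif2a and Eif2d, which deliver initiator tRNA outside eIF2, stood apart under the lung label. Eif2a had 32.2, 17.1, 20.4, 15.0, 104 and 11.6 RPKM, and the lung-labelled value was 3.24 times the next. Eif2d had 23.6, 63.9, 59.7, 20.0, 149 and 18.7 RPKM, and the lung-labelled value was 2.33 times the next. Eif2a stayed past 2-fold under both other scalings, whereas Eif2d did not with the median of ratios. Each range rested on at least 134 reads per library for Eif2a and 244 for Eif2d.

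**Figure D3:**
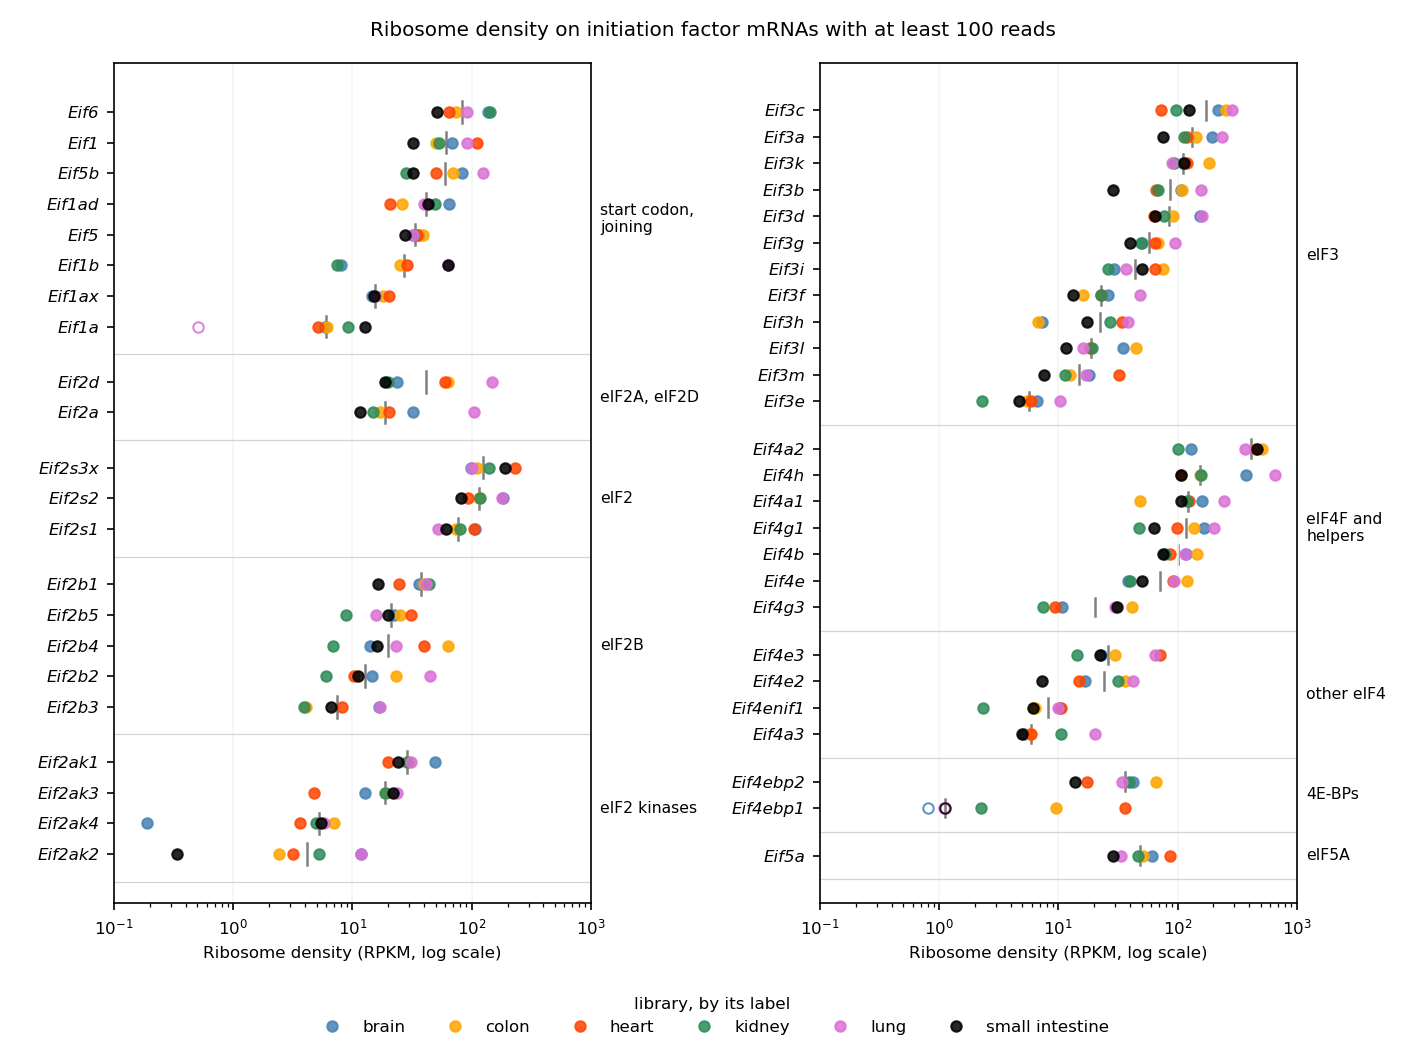
Ribosome density (x axis, RPKM, log scale) of the 48 initiation factor mRNAs with at least 100 reads, 1 row per mRNA, grouped by role, with 1 point per library coloured by its label, open points at the RPKM of 3 reads where no read was found, and a grey bar at the median. Subunits of eIF2 lie between 52.0 and 229.8 RPKM, those of eIF2B between 3.89 and 63.4 RPKM, and Eif3e lies below all other eIF3 subunits drawn in each library.

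eIF2B, the exchange factor of eIF2, was read at lower density than its substrate, with each subunit below each of the 3 eIF2 subunits in every library. Eif2b1, the alpha subunit, had the highest median, with 35.9, 39.5, 24.6, 44.0, 41.1 and 16.4 RPKM. Eif2b3, the gamma subunit, had the lowest, with 16.6, 4.09, 8.20, 3.89, 17.1 and 6.66 RPKM. Over medians across libraries they were 5.08-fold apart, and in the heart-labelled and lung-labelled libraries alone 2.60-fold. Eif2b4, the delta subunit, had 14.1, 63.4, 39.4, 6.83, 23.4 and 16.2 RPKM, and Eif2b2, the beta subunit, had 14.6, 23.2, 10.3, 6.01, 44.5 and 11.1 RPKM. Eif2b4 was highest under the colon label and Eif2b2 under the lung label, with ranges of 9.28-fold (7.38 to 11.8) and 7.40-fold (5.46 to 10.2). Eif2b5, the catalytic epsilon subunit, had 22.4, 25.3, 31.2, 8.89, 15.7 and 19.9 RPKM. Under the kidney label 4 of the 5 subunits were at their lowest, whereas Eif2b1 was at its highest there. The intervals of Eif2b1 and Eif2b3 overlapped those of the neighbouring library in the order. The median over the subunits ranged from 6.83 RPKM (kidney label) to 25.3 RPKM (colon label), 3.70-fold. In the other 5 libraries it lay between 16.2 and 25.3 RPKM.

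The eIF2 kinases answer to different stresses. Eif2ak1, the heme-regulated kinase HRI, had 49.3, 29.05, 19.8, 28.5, 30.9 and 24.3 RPKM. Eif2ak3, the endoplasmic reticulum kinase PERK, had 12.7, 19.0, 4.72, 18.8, 23.8 and 22.0 RPKM, with the lowest value under the heart label at 2.68-fold below the next. Eif2ak2, the kinase PKR that is activated by double-stranded RNA, had 11.7, 2.44, 3.16, 5.21, 11.9 and 0.339 RPKM. Its value under the small intestine label rested on 4 reads (interval 0.0923 to 0.867 RPKM), and the next lowest library was 7.21-fold higher. Eif2ak4, the kinase GCN2 that senses uncharged tRNA, had 0.190, 7.05, 3.61, 4.96, 5.78 and 5.48 RPKM. Under the brain label it had 10 reads on a CDS of 4944 nt (0.0912 to 0.350 RPKM), and the remaining libraries had between 3.61 and 7.05 RPKM, none of whose intervals reached that level. All windows of the 4 CDSs were unique.

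Eif2ak1 held 66.7%, 50.5%, 63.3%, 49.6%, 42.7% and 46.6% of the summed RPKM of the kinases and led in all 6 libraries. Eif2ak3 held 17.1%, 33.0%, 15.1%, 32.7%, 32.8% and 42.2%. Under the lung and small intestine labels it came closest to Eif2ak1, with intervals of 30.5% to 35.2% and 39.3% to 45.1% beside 40.0% to 45.5% and 43.4% to 49.8%, which overlapped only under the small intestine label. Eif2ak2 held 15.9%, 4.25%, 10.1%, 9.06%, 16.4% and 0.650%, and Eif2ak4 held 0.257%, 12.3%, 11.5%, 8.63%, 7.99% and 10.5%. Thus the brain-labelled library was low in Eif2ak4 with Eif2ak2 present, and the small-intestine-labelled library was low in Eif2ak2 with Eif2ak4 present. The markers of brain were highest under the small intestine label and those of small intestine under the brain label, so these values cannot be assigned to a tissue here.

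**Figure D4:**
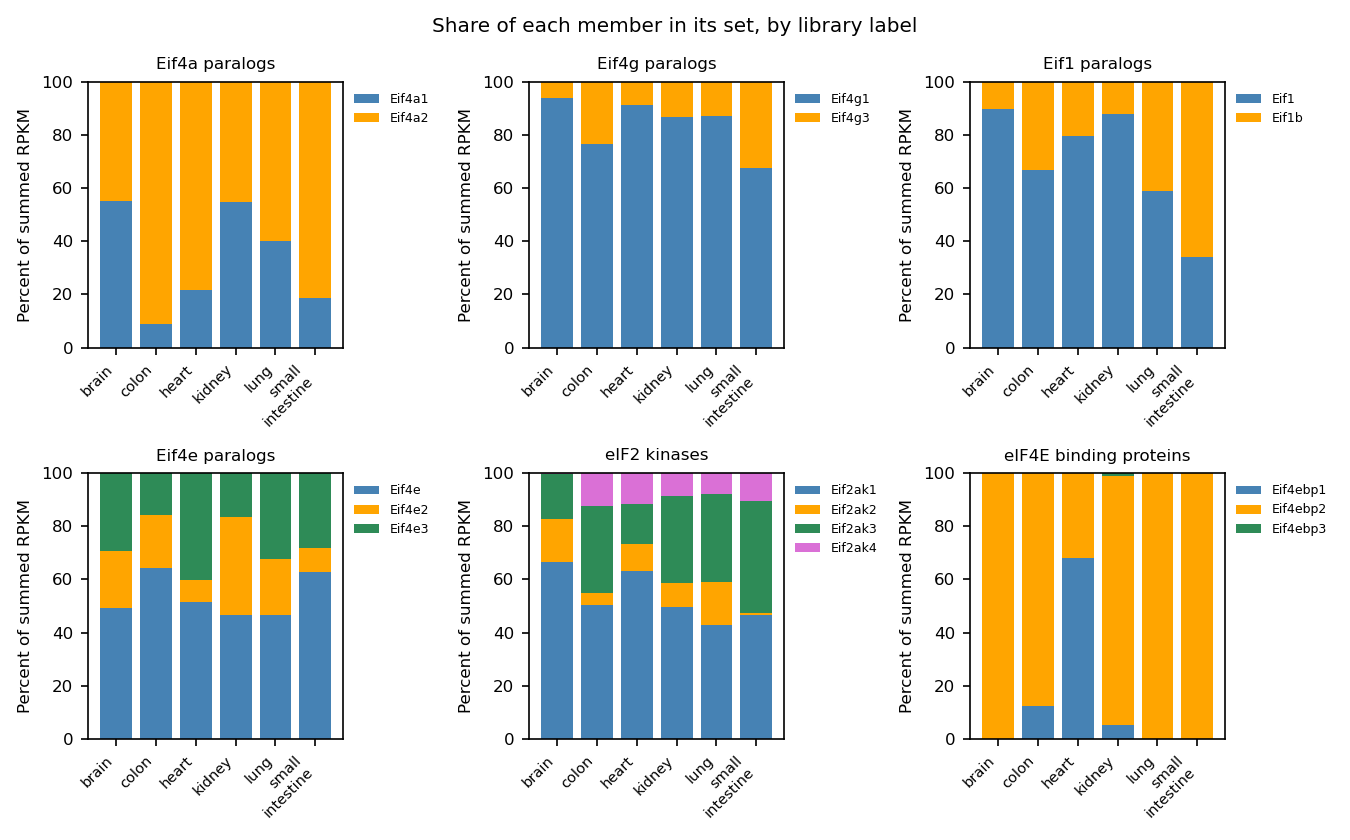
Share of each mRNA in the summed RPKM of its set (y axis, percent) in each library, named by its label, for the paralogs of eIF4A, eIF4G, eIF1 and eIF4E, the eIF2 kinases and the eIF4E binding proteins. Eif4a2 holds between 45.1% and 91.3% of its pair, Eif2ak1 leads the kinases in each library, and Eif4ebp1 leads its set only under the heart label.

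The subunits of eIF3 spread over more than 1 order of magnitude. Eif3c, part of the scaffold on which eIF3 assembles, had the highest median, with 219, 254, 72.0, 96.7, 284 and 126 RPKM. Eif3a, the largest scaffold subunit, had 195, 144, 119, 114, 235 and 74.8 RPKM, and Eif3k, a small subunit at the edge of the complex, had 110.4, 182, 121, 93.4, 90.0 and 114 RPKM. These 3 lay above the median of the complex in all 6 libraries. Eif3e had the lowest level of the subunits with reads, with 6.69, 5.49, 5.95, 2.27, 10.4 and 4.70 RPKM, from as few as 23 reads under the kidney label. It ranked below the other 11 such subunits in every library, at between 0.0802 and 0.215 of the complex median, although all of its windows were unique. Over medians across libraries Eif3c was 30.1-fold above Eif3e, and 21.8-fold in the heart-labelled and lung-labelled libraries alone.

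Eif3f, Eif3h, Eif3l and Eif3m were also low. Chosen after their values were seen, these and Eif3e had 4.70 to 17.3 RPKM under the small intestine label, beside 28.8 to 126 RPKM for the other 7 subunits with reads. The 2 ranges were also apart under the heart label, at 5.95 to 34.1 and 63.3 to 121 RPKM, and under the colon label, at 5.49 to 44.9 and 68.4 to 254 RPKM. They overlapped slightly under the brain, kidney and lung labels. Eif3m, which with Eif3e, Eif3c, Eif3k and Eif3l belongs to the subunits with a PCI domain, had 18.02, 12.5, 32.2, 11.3, 17.2 and 7.58 RPKM. Eif3h, a subunit with an MPN domain, had 7.30, 6.73, 34.1, 27.2, 38.5 and 17.3 RPKM, with both the brain-labelled and the colon-labelled library below the others, and a range of 5.72-fold (3.97 to 8.51). Its partner Eif3f had 26.2, 16.0, 23.0, 23.0, 48.3 and 13.2 RPKM, highest under the lung label. Subunits with a PCI domain thus lay in both groups, Eif3c and Eif3k in the higher one, whereas the MPN subunits Eif3f and Eif3h both lay in the low one.

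Eif3b, an RNA-binding subunit near the mRNA entry, had 106, 109.7, 66.1, 68.4, 157 and 28.8 RPKM, and under the small intestine label it was 2.30-fold below the next lowest library. Eif3d, which can bind the cap itself, had 154, 92.2, 63.3, 77.2, 159 and 64.8 RPKM. Eif3g, Eif3i and Eif3l ranged between 39.8 and 95.5, 26.2 and 75.1, and 11.7 and 44.9 RPKM. Eif3j1 was listed at 0 in 2 libraries and not listed in the others. Only 1 of its 755 windows was unique, since it shares its sequence with Eif3j2, which was not analysed here, so its level could not be measured. The median over 13 subunits, with Eif3j1 at 0, was highest under the colon label (68.4 RPKM) and lowest under the kidney label (27.2 RPKM), 2.51-fold apart. Without Eif3j1 the fold was 2.09, between the colon and small intestine labels.

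The helicase eIF4A is encoded by Eif4a1 (chr11:69557762-69563249, minus strand) and Eif4a2 (chr16:22925894-22932886, plus strand). Eif4a1 had 159, 48.3, 126, 121, 246 and 106 RPKM, highest under the lung label and lowest under the colon label. Eif4a2 had 131, 509, 459, 100.2, 368 and 465 RPKM, and the brain-labelled and kidney-labelled libraries lay below the other 4 with no overlap of their intervals. Eif4a2 held 45.1%, 91.3%, 78.5%, 45.4%, 59.9% and 81.4% of the summed RPKM. The pair was thus near even under the brain label (interval 43.5% to 46.7%) and the kidney label (43.2% to 47.6%), and Eif4a2 led in the other 4 libraries, by most under the colon label (90.3% to 92.3%). All windows of both CDSs were unique, and these shares did not depend on the scaling between libraries. Between the heart-labelled and lung-labelled libraries, whose markers matched their labels, the share of Eif4a2 was 78.5% (77.4 to 79.5) and 59.9% (58.7 to 61.2).

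Eif4h, a helper of the helicase, had 373, 153, 106.9, 156, 654 and 106.5 RPKM, the highest density of any initiation factor mRNA in these libraries under the lung label. Its range was 6.14-fold (5.63 to 6.70), which dropped below 4-fold with the median of ratios. Eif4b, the other helper, had 118, 146, 87.1, 79.3, 115 and 75.2 RPKM and a range of only 1.94-fold. Eif4g1, the main scaffold of eIF4F, had 168, 136, 99.9, 47.7, 203 and 64.0 RPKM, highest under the lung label and lowest under the kidney label. Eif4g3, its paralog, had 10.8, 41.6, 9.47, 7.46, 29.8 and 30.8 RPKM, the lowest of the 7 mRNAs of eIF4F and its helpers in each library. Eif4g3 held 6.02%, 23.3%, 8.66%, 13.5%, 12.8% and 32.5% of the summed RPKM of the pair, with the larger shares under the small intestine and colon labels. Eif4g2 was not analysed here. The median over the 7 mRNAs ranged from 75.2 RPKM (small intestine label) to 203 RPKM (lung label), 2.69-fold, and this fold was 2.29 without Kri1 and mitochondrially encoded mRNAs and 1.69 with the median of ratios. Over medians across libraries Eif4a2 was 20.4-fold above Eif4g3.

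Eif4e, the cap-binding protein, had 38.3, 120.0, 91.8, 39.9, 93.8 and 50.4 RPKM, highest under the colon label. Eif4e2, a relative that represses rather than drives initiation, had 16.8, 36.6, 14.8, 31.4, 42.0 and 7.24 RPKM, with the small-intestine-labelled library 2.04-fold below the next. Eif4e3, a further relative, had 22.9, 29.7, 71.6, 14.2, 64.8 and 22.5 RPKM, with the heart-labelled and lung-labelled libraries above the others. Eif4e led this set in all 6 libraries by RPKM, with 49.1%, 64.4%, 51.5%, 46.7%, 46.8% and 62.9%. Only 48.6% of the windows of Eif4e3 were unique, and when density was taken per unique window Eif4e led in 3 libraries and Eif4e3 in the others. The order of Eif4e and Eif4e3 therefore depended on the length used. Eif4e1b, a form known from oocytes, had 11 reads under the kidney label (1.93 RPKM) and was not listed elsewhere.

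Eif4enif1, which carries eIF4E into the nucleus and acts in mRNA repression, had 10.4, 6.40, 10.5, 2.33, 9.96 and 6.08 RPKM, with the kidney-labelled library 2.61-fold below the next. Eif4a3, the helicase of the exon junction complex rather than of initiation, had 5.19, 5.76, 5.95, 10.6, 20.2 and 4.99 RPKM. It was highest under the lung label, at 1.91 times the next, and 54.9% of its windows were unique.

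Among the 4E-BPs, Eif4ebp2 was read in all 6 libraries, with 42.6, 66.0, 17.3, 38.8, 34.1 and 13.8 RPKM. Eif4ebp1 had 9.49 RPKM under the colon label, 36.6 under the heart label and 2.25 under the kidney label, from 15, 105 and 6 reads. It was not listed under the brain and lung labels and was listed at 0 under the small intestine label, where 3 reads would have given 0.804, 1.11 and 1.12 RPKM. The heart-labelled value was 3.85 times the next and, with the lowest library set to 3 reads, 45.5-fold above the lowest. Eif4ebp1 held 0%, 12.6%, 67.9%, 5.43%, 0% and 0% of the summed RPKM, so that it led only under the heart label (interval 60.0% to 75.1%), where Eif4ebp2 was second lowest. The shares of 0 allow up to 2.29% under the brain label, 3.90% under the lung label and 9.47% under the small intestine label, by the upper bound of the interval. Eif4ebp3 had 1 read, under the kidney label, and 36.4% of its windows were unique. The stretch that codes for the eIF4E-binding element was nearly the same in Eif4ebp1 and Eif4ebp2, as printed above, while their levels differed in this way.

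Eif5a, which helps ribosomes through stalls and at termination, had 61.5, 51.4, 87.0, 46.2, 33.3 and 28.9 RPKM, highest under the heart label and lowest under the small intestine label. Eif5a2, which carries the same hypusine site, had 29 reads in all and was below the minimum. Of these, 11 lay under the colon label (5.32 RPKM) and 13 under the small intestine label (3.70 RPKM), and none under the brain label. Its share of the pair was 0%, 9.38%, 0.909%, 0.617%, 0.839% and 11.4%. The intervals of 4.78% to 16.2% under the colon label and 6.20% to 18.7% under the small intestine label lay above those of the other 4 libraries, whose highest bound was 4.58%.

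The heart-labelled and lung-labelled libraries were the only ones whose markers matched their labels. Between them 6 of the 48 mRNAs (12.5%) were at least 4-fold apart, beside 38% of all mRNAs. With the lung-labelled values, which had no reads, set to the RPKM of 3 reads, Eif4ebp1 was 33.1-fold and Eif1a 10.1-fold higher under the heart label. Eif4h, Eif2a, Eif2ak3 and Eif2b2 were lower there, at 0.164, 0.195, 0.198 and 0.232 of their RPKM under the lung label. For the remaining 42 the fold was smaller. Scaled by the median of ratios, the lung-labelled library shifted by -0.44 and the heart-labelled by 0.20 on the log2 scale, and 3 mRNAs (6.25%) were then at least 4-fold apart, beside 35.6% of all mRNAs. Eif4ebp1 and Eif1a kept the call and Eif5a gained it, at 4.06-fold higher under the heart label. Eif4h, Eif2a, Eif2ak3 and Eif2b2 lost it, at ratios of 0.254, 0.304, 0.308 and 0.361.

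Genes linked to the initiation factors, acting on them or downstream of them, but not named for them were taken from a list of 26, of which 25 had at least 100 reads. The 4-fold range was met by 12 of the 25, beside the 84.8% of all mRNAs. Of the 25 genes, 5 (20%) were high in 1 library (Bzw2, Impact, Ppp1r15a, Ppp1r15b and Rps6kb1), beside 40.3% of all mRNAs. Low in 1 library were 3 (12%), namely Atf4, Mknk2 and Pdcd4, beside 33.6% of all mRNAs. Impact, an inhibitor of the activation of GCN2, had 17.2, 34.4, 20.8, 9.95, 43.1 and 453 RPKM. The small-intestine-labelled value was 10.5 times the next, in a library where Eif2ak4 itself had 5.48 RPKM. Ppp1r15b, the constitutive partner of the phosphatase that reverses eIF2 phosphorylation, had 43.9, 17.7, 6.49, 18.1, 20.4 and 10.3 RPKM. Ppp1r15a, its stress-induced counterpart, had 0.429, 0.113, 1.67, 2.01, 6.76 and 1.66 RPKM. The former was highest under the brain label and the latter under the lung label. Bzw2, a mimic of eIF5, had 33.8, 26.7, 201, 19.7, 11.0 and 17.3 RPKM, and the heart-labelled value was 5.95 times the next. Atf4, the transcription factor whose translation is raised when eIF2 is phosphorylated, had 4.94, 0, 7.94, 13.5, 6.55 and 11.1 RPKM and was listed at 0 under the colon label, where 3 reads would have given 0.636 RPKM.

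The 8 mRNAs below the minimum were Eif1ad16, Eif1ad19, Eif2s3y, Eif3j1, Eif4a3l1, Eif4e1b, Eif4ebp3 and Eif5a2. Eif1ad16 had 2 reads, under the heart label, and Eif1ad19 and Eif4a3l1 had none. They belong to groups of near copies, with 14.4%, 31.2% and 28.0% of their windows unique, so that a lack of reads here bounds the unique part of the sequence only.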

How the data were processed

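The authors deposited 1 RPKM value per mRNA and library, with transcript, gene and CDS length in the row name. Per the labels' processing notes, Cutadapt, STAR and build GRCm39 were used. Per the methods, written for the macrophage libraries and taken to hold here, each gene of Ensembl release 107 was represented by its longest-CDS mRNA, and an aligned read was kept if it had at least 15 nt, at most 2 mismatches and a single mapping position. Whole reads were recovered from the product of RPKM and CDS length (tolerance 0.001) for 100% of the values, and the recovery was tested on simulated data, where it held for 100% of 5000 mRNAs.

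Intervals are exact Poisson for RPKM and Clopper-Pearson for shares, both at 95%, with shares of reads carried over to RPKM. Reads carry no molecular identifiers, so they cover counting error only. A range whose lowest library had under 3 reads was computed against the RPKM of 3 reads per library. With 1 library per label no test was made. The share of unique windows is that of 29-nt windows of a CDS found in no other transcript searched. The search covered 21709 transcripts of GENCODE M39, read from GRCm39, over their whole length, not only their CDSs. Symbols were found for 18424 of 18437 mRNAs. All values are given for paralog sets, kinases, binding proteins, mRNAs past a fold rule and the highest and lowest subunit of each complex, with some others added. The members and lists were chosen with earlier results of these data known. Alternatives covered the read minimum, the floor, the scaling, the length and depth used, and the libraries left out. Software was biopython 1.88, matplotlib 3.10.9, pandas 2.3.3, scipy 1.17.1 and numpy 2.4.6 in Python 3.11.15.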

Additional observations from a re-analysis of the deposited data

How the results depend on the processing

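With 1 library per label, no result has a replicate check, and depth limits the mRNAs with few reads, such as Eif2ak2 under the small intestine label and Eif4ebp1. No paired analysis was possible because each label has 1 library. Leaving out each library in turn gave between 15 and 25 mRNAs past the 4-fold range, in place of 26. The share of all mRNAs was then between 77.1% and 81.5%, and the lowest count was that without the lung-labelled library. In the heart-labelled and lung-labelled libraries alone 6 passed, beside 38% of all, a comparison added after seeing the data. With 1 library left out, between 4 and 8 mRNAs were high in 1 library, in place of 3, beside 37.8% to 44.8% of all. Between 8 and 12 were low in 1 library, in place of 10, beside 33% to 38.4% of all. The other alternatives for these 3 counts, namely the read minimum, the floor, the scaling and the unique windows, left each within 1.5 times its value. Among these, the 4-fold count was lowest without Kri1 and mitochondrially encoded mRNAs, at 18 (37.5%) beside 83.8% of all mRNAs. Between the heart-labelled and lung-labelled libraries, 3 mRNAs in place of 6 were at least 4-fold apart with the median of ratios, of which 2 were among the 6, in an alternative added after seeing the data. Per unique window, Eif4e led its set in 3 libraries in place of 6, and Eif1ax in 5 in place of 6. The fold of the median level of eIF2 between libraries was 1.62 without Kri1 and mitochondrially encoded mRNAs and 1.81 with the median of ratios, in place of 1.44. For eIF4F and its helpers these folds were 2.29 and 1.69, in place of 2.69. For eIF3 without Eif3j1, added after seeing the data, the fold was 2.09 in place of 2.51. Between the highest and the lowest subunit, the heart-labelled and lung-labelled libraries alone gave 2.12 for eIF2 in place of 1.63, 2.60 for eIF2B in place of 5.08 and 21.8 for eIF3 in place of 30.1. Of 132 shares within sets, 115 stayed within their counting interval per unique window and 123 after every library was thinned to 4504853 reads. The causes of these changes were not tested, other than those that follow from using fewer libraries, fewer subunits or another length.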
